A study of Homo sapiens with 32 samples.

Results

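The repressive line was compared with the neutral line in the absence of tamoxifen, from 8 of the 32 RNA-seq libraries of the series, 4 for each line. Both are LNCaP, an androgen-dependent human prostate cancer cell line, made stable by lentiviral infection and blasticidin selection. Each carries a modifier of ARE-containing chromatin (MACC), a fusion of a DNA-binding domain that recognises androgen response elements (AREs) with ERT2, the tamoxifen-responsive ligand-binding domain of the oestrogen receptor, and a 3X FLAG tag. The neutral MACC (3X) has no further domain, and the repressive MACC has a KRAB domain. The activating line, whose MACC has the transcriptional activator VP64, and the parental line, which has no construct, are used below for reference, with 4 vehicle and 4 tamoxifen libraries each. The 8 libraries came from cells given vehicle (ethanol) for 48 h, and the same lines given 2.5 µM tamoxifen for 48 h, 4 libraries each, served for the induced response. The labels name 1 line for each construct, so a difference set by the construct and one set by the line that carries it cannot be told apart, and p-values measure only the spread between these libraries.

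AREs are palindromic DNA elements found near many genes of the prostate lineage. A KRAB domain recruits the corepressor TRIM28, which brings in the histone H3 lysine 9 methyltransferase SETDB1 and heterochromatin proteins and so silences nearby genes. An ERT2 fusion is held outside the nucleus by heat shock proteins until tamoxifen binds it, so the comparison under vehicle asks whether the repressive construct acts before induction.

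The construct itself was read first. ZNF10 (chromosome 12, 133707161 to 133736051, GRCh37) is the zinc finger gene whose KRAB domain is widely used for repression, and it marks the repressive MACC. Its N-terminal coding sequence is shown because the KRAB domain lies there, but it is the reference gene, and the bases that the construct carries may differ from it. The first 240 bases of the coding sequence of the gene in GENCODE run as follows, with the start codon in capitals.

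ZNF10 coding start: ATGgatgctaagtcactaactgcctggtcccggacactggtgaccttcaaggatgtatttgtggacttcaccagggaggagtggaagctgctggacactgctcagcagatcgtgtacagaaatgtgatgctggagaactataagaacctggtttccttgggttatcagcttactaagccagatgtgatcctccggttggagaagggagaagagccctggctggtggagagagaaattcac

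ZNF10 was at 0 counts in each of the 4 neutral vehicle libraries, and at 22.3, 24.1, 26.8 and 15.3 CPM (counts scaled by library size and by TMM) in repressive replicates 1 to 4. The groups did not overlap, and the repressive level of 22.1 ± 4.91 CPM (SD, n = 4) was at least 5.84-fold higher than a floor of 3 counts per library (p = 0.0286 by an exact two-sided permutation test, which cannot go lower with 4 against 4). ESR1, the source of ERT2 in both MACCs, was at 122, 146, 160 and 136 CPM in the neutral libraries and at 175, 129, 130 and 174 CPM in the repressive ones. These ranges overlapped, and the means of 141 ± 15.7 and 152 ± 26.1 CPM (SD, n = 4 each) did not differ past the test (exact two-sided permutation p = 0.486), with the direction turned on raw counts. The ZNF10 level was about the same with tamoxifen, at 16.6 to 24.4 CPM in the 4 repressive libraries and 0 in the neutral ones.

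**Figure D1:**
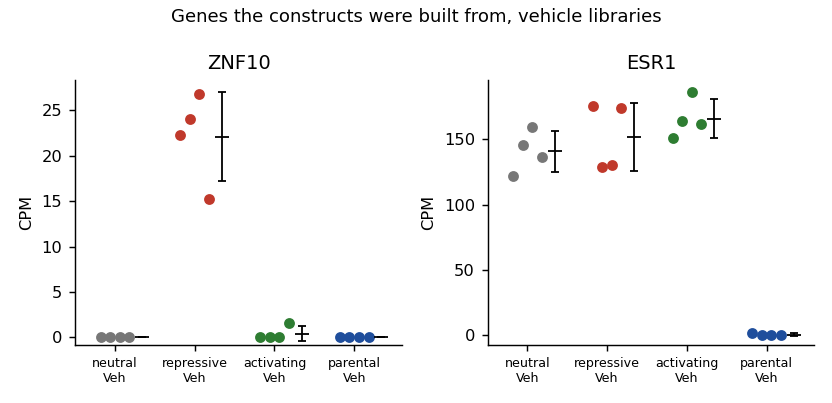
CPM of ZNF10 and ESR1 in each vehicle library of the 4 lines (points, 4 libraries a line), with the mean and SD beside them. ZNF10 stood at 15.3 to 26.8 CPM in the repressive libraries and at 0 in the neutral ones, while the ESR1 points of these lines overlapped.

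The totals of counts on genes were low, at 726370 to 789958 in the neutral line and 470343 to 736098 in the repressive line. The lowest was in repressive replicate 3. These totals are not the number of reads sequenced. Of 16 LNCaP identity genes, 0 were at 0 in all 8 libraries, though ACPP, TRPM8 and TRPM4 had at most 1, 2 and 3 counts. At 0 in all 8 were 11 of 16 basal, 11 of 20 mesenchymal and 8 of 15 neuroendocrine markers, such as KRT5, TP63, CDH2 and CHGB. A count of 10 or more in any library was reached by 13 identity, 0 basal, 3 mesenchymal and 2 neuroendocrine genes. Among the latter were FN1 at 22 to 48 counts, TAGLN at 7 to 19 and NCAM1 at 6 to 15. These marker counts take each gene under its own name and leave out opposite features. One such feature, VIM-AS1, opposite the mesenchymal marker vimentin, had 1 to 26 counts. In the table, 76.4% of the counts of the 8 libraries lay on genes with an exon that overlaps an exon of the opposite strand, and for many abundant genes the reads stood on that opposite feature. GAPDH, a glycolytic enzyme, had 111 to 137 CPM under its own name in the neutral libraries, and RP5-940J5.9, the feature opposite it, had 26370 to 32269 CPM. The library kit marks strand but the setting used for counting is not given in the sources used here, so a gene and its opposite partner are read below as 1 locus whose strands cannot be told apart. Over the 932 coding genes whose main opposite feature is a long non-coding RNA, with at least 100 counts in the pair, the non-coding feature held more counts than the coding gene in 696 (74.7%). Of the counts of these pairs, 88.6% lay on the non-coding feature. The whole table may thus have been counted on the strand opposite to the transcripts. If so, the CPM of a gene with no opposite partner, such as GDF15, EEF2, MARCH1, KLK3 and the mitochondrial genes, would be that of reads on the strand opposite to it, and neither its level nor its difference could be taken as that of its mRNA.

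Between the uninduced lines, 93 of 3985 tested genes differed (2.33%, adjusted p under 0.05 from edgeR's quasi-likelihood test), 39 of them higher (0.979%) and 54 lower (1.36%) in the repressive line. At an unadjusted p under 0.05 the count was 551. In bulk libraries such as these, a change in the mix of cells and a change in RNA per cell cannot be told apart. The differences were small, with a median absolute log2 fold change of 0.57 over the called genes. Only 14 of the 93 reached a 2-fold difference, a log2 fold change of 1, and 39 stayed under 0.5. In 76 of the 93 the CPM of the lines did not overlap, as in 7.15% of all tested genes. An opposite-strand exon lay over 66 of the called genes, 25 had none and 2 were not found in the annotation. The count rested on single libraries, at 47 without repressive replicate 2, 52 without neutral replicate 2, 56 without neutral replicate 3, 61 without repressive replicate 4 and 180 without repressive replicate 1. It fell to 35, with 6 higher and 29 lower, when all 16 vehicle libraries shared 1 estimate of the spread, and to 50, with 19 higher and 31 lower, over all 32 libraries.

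**Figure D2:**
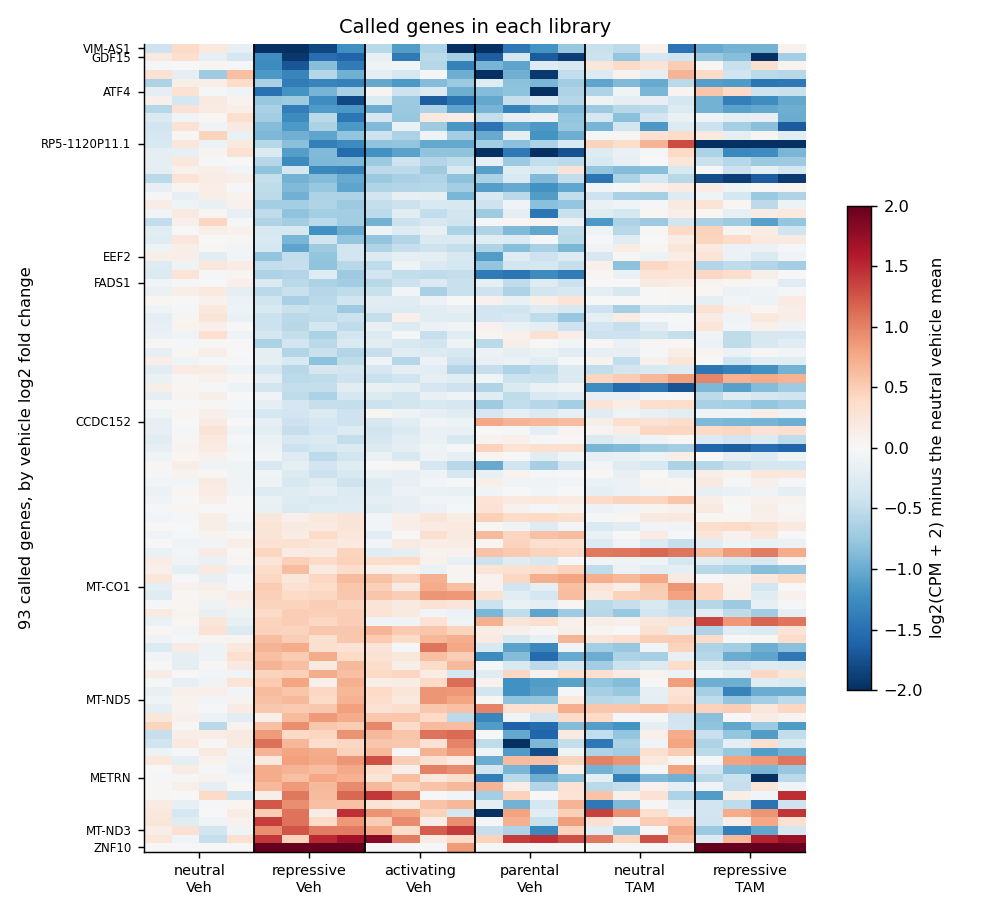
The 93 called genes (rows, ordered by log2 fold change under vehicle, some named) in 24 libraries (columns, 4 a group), as log2(CPM + 2) minus the mean of the neutral vehicle libraries. The 54 lower genes are at the top and the 39 higher ones at the bottom, and 17 of the 93 rows were called again between the lines with tamoxifen.

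Genes of the mitochondrial genome made up the main named group among the higher genes. Of the 17 tested, 11 rose, against 0.979% of all tested genes, 0 fell and 6 did not pass the test. Their median log2 fold change was 0.60 against 0.01 for all tested genes. The 11 encode subunits of respiratory complex I (MT-ND1, MT-ND2, MT-ND3, MT-ND4, MT-ND4L, MT-ND5 and MT-ND6), of cytochrome c oxidase (MT-CO1, MT-CO2 and MT-CO3) and of ATP synthase (MT-ATP6). MT-ND3 was at 67.9, 76.7, 46.9 and 58.7 CPM in neutral replicates 1 to 4 and at 120, 149, 128 and 129 CPM in repressive replicates 1 to 4. All 4 repressive libraries were above all 4 neutral ones, with a log2 fold change of 1.10 ± 0.15 (SE, edgeR adjusted p = 2.93e-06). MT-CO2 was at 119 to 142 CPM in the neutral and 199 to 218 CPM in the repressive libraries, and MT-ATP6 at 120 to 147 and 178 to 223 CPM. Again neither pair of ranges overlapped, with log2 fold changes of 0.73 (adjusted p = 2.35e-05 from edgeR) and 0.70 (adjusted p = 0.000109 from edgeR).

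Of the 11 called genes, 10 are annotated on one strand of the mitochondrial genome and MT-ND6 on the other, and the doubt over the counted strand holds for both. MT-ND5 was at 1522 to 1707 CPM in the neutral and 2116 to 2616 CPM in the repressive libraries. The row of MT-ND6 had the most counts of the 11, at 3990 to 5058 and 6487 to 7971 CPM. Their log2 fold changes were 0.60 (adjusted p = 5.5e-09 from edgeR) and 0.62 (adjusted p = 0.000971 from edgeR), the ranges lying apart in both. Of the 6 that did not pass, MT-CYB had a log2 fold change of 0.48 (adjusted p = 0.182 from edgeR) and MT-RNR2, a ribosomal RNA, 0.20 (adjusted p = 0.742 from edgeR).

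As a share of all counts, the 37 genes of the mitochondrial genome took 0.857% and 0.984%, 0.866% and 1.04% in neutral replicates 1 to 4, against 1.36%, 1.46%, 1.36% and 1.53% in the repressive ones. The lines were thus apart in every library under vehicle. With tamoxifen they overlapped, at 0.825% to 1.29% in the neutral and 0.716% to 0.994% in the repressive line, and 0 of the 17 genes passed there. All 11 called genes then had negative log2 differences, from -0.16 for MT-ND6 to -0.89 for MT-ND3. The calls depended on which libraries set the spread. Of the 17, 0 passed in the fit over the 16 vehicle libraries and 3 in the fit over all 32, with medians of 0.59 and 0.61, while 10 to 12 passed in the other settings. In vehicle replicate 1, MT-ND6 alone held 3233 of the 6430 counts of the 37 genes in the neutral line. In the repressive line it held 4730 of 9430. The vehicle shares of the other lines were 1.16% to 1.52% in the activating line and ranged from 0.878% to 1.37% in the parental line.

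**Figure D3:**
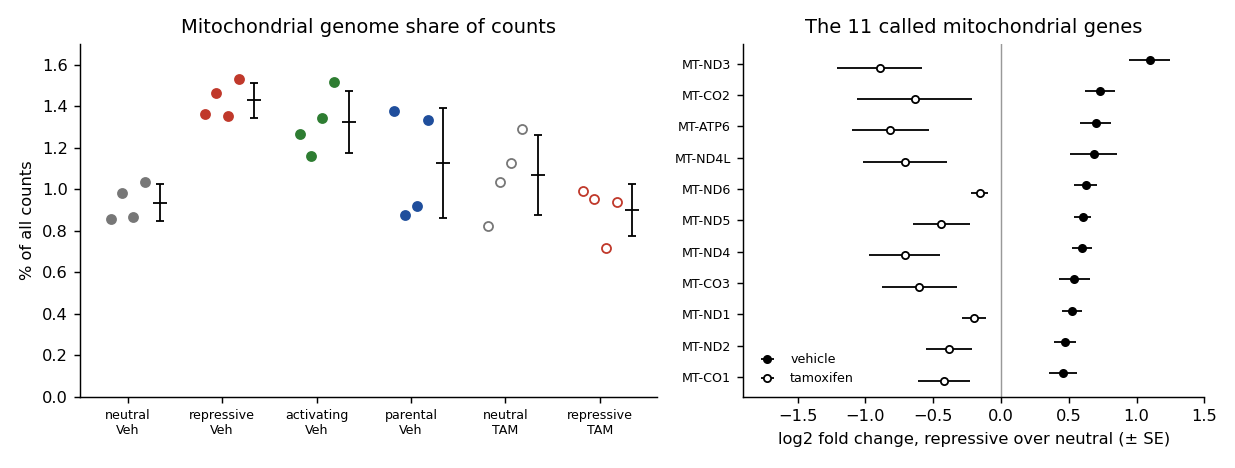
Left, percent of all counts on the 37 genes of the mitochondrial genome in each library (points; filled for vehicle, open for tamoxifen) with the mean and SD beside them; right, log2 fold change of the repressive over the neutral line (± SE) for the 11 called genes. The lines lie apart under vehicle and overlap with tamoxifen, where all 11 differences are below 0.

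A list of genes of glycolysis and of the response to low oxygen was read next. Of its 14 tested genes, 2 fell, against 1.36% of all tested genes, 0 rose and 12 did not pass, with a median log2 fold change of -0.37 against 0.01 for all tested genes, and all 3 tested features opposite to genes of the list fell. GAPDH was at 137, 116, 111 and 130 CPM in neutral replicates 1 to 4 and at 76.5, 75.9, 80.4 and 73.7 CPM in the repressive ones, with no overlap. Its log2 fold change was -0.68 ± 0.14 (SE, edgeR adjusted p = 0.00244). RP5-940J5.9, opposite it, was at 26370, 30315, 32269 and 29858 CPM and at 25832, 19707, 21841 and 19724 CPM, a narrow gap, with a log2 fold change of -0.42 ± 0.07 (SE, edgeR adjusted p = 0.000814). Both rows of the GAPDH locus thus fell.

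ENO1, which encodes the glycolytic enzyme enolase and overlaps ENO1-AS1, was at 21.0 to 32.9 CPM in the neutral and 8.34 to 17.2 CPM in the repressive libraries, a log2 fold change of -1.08 (adjusted p = 0.0496 from edgeR). RP1-261G23.7, opposite the angiogenic growth factor gene VEGFA, was at 87.6, 89.7, 105 and 125 CPM and at 82.1, 45.8, 53.6 and 33.4 CPM. It fell by 0.91 ± 0.19 on the log2 scale (SE, edgeR adjusted p = 0.00748). VEGFA under its own name did not pass, with 0.06 (adjusted p = 0.955 from edgeR). UFSP2, opposite the hypoxia-inducible gene ANKRD37, was at 109 to 192 CPM and 77.9 to 114 CPM, ranges that overlapped, and fell by 0.83 (adjusted p = 0.0013 from edgeR). The own row of ANKRD37 stood at 0.31 (adjusted p = 0.372 from edgeR), so the rows of these loci did not move alike. RP11-192H23.5, opposite the aldolase gene ALDOC, which is outside the list, was at 307, 404, 346 and 348 CPM in the neutral and 235, 143, 188 and 189 CPM in the repressive libraries. With no overlap it fell by 0.88 ± 0.11 (SE, edgeR adjusted p = 2.93e-06), a call that no setting removed. Among the uncalled members LDHA stood at -0.99 (adjusted p = 0.197 from edgeR), PKM at -0.64 (adjusted p = 0.251 from edgeR) and PGK1 at 0.06 (adjusted p = 0.944 from edgeR). Called lower across these genes and opposite features were 5 of 17 rows, against 1.36% of all tested genes. Rows are not separate loci here, as GAPDH, VEGFA and ANKRD37 each entered with an own and an opposite row. Both GAPDH rows are among the 5. The count was 3 without repressive replicate 2, 2 with the replicate number as a block and 0 of 7 among genes with no opposite exon.

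GDF15 (chromosome 19, 18485541 to 18499986), a secreted stress-responsive cytokine, had the largest fall among genes with no opposite exon that met the naming rule. It was at 48.1, 53.3, 37.5 and 32.9 CPM in neutral replicates 1 to 4 and at 16.7, 9.63, 13.4 and 12.5 CPM in repressive replicates 1 to 4. The 4 repressive libraries lay below the 4 neutral ones, and the log2 fold change of -1.70 ± 0.27 (SE, edgeR adjusted p = 4.4e-05) ranged from -1.83 to -1.56 over the alternatives. ATF4, a transcription factor of the integrated stress response, was at 23.4 to 33.8 CPM and 8.35 to 16.7 CPM. It too had no overlap and fell by 1.14 (adjusted p = 0.0276 from edgeR), while the other 5 tested genes of the endoplasmic reticulum stress list did not pass.

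EEF2, the elongation factor that moves the ribosome along mRNA, was at 193, 194, 153 and 170 CPM in the neutral and 102, 125, 101 and 135 CPM in the repressive libraries, with no overlap. It fell by 0.58 ± 0.13 (SE, edgeR adjusted p = 0.00417) and kept its call in every setting. EIF4B, an initiation factor that overlaps an opposite-strand RNA, fell by 0.62 (adjusted p = 0.0238 from edgeR), from 90.1 to 113 CPM in the neutral libraries to 44.01 to 83.5 CPM in the repressive ones. HEATR1, which acts in ribosome synthesis and lies opposite LGALS8, fell by 0.39 (adjusted p = 0.000204 from edgeR), from 1101 to 1288 CPM to 836 to 1058 CPM. Of 61 tested ribosomal protein genes 0 passed, although 57 had a negative log2 fold change, against 1940 of all 3985 tested genes. Their median was -0.25, against 0.01 for all tested genes. These genes were read in the same libraries and are not separate observations.

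Both called genes of the androgen response list were lipid enzymes. FADS1, a fatty acid desaturase that lies opposite FADS2, was at 434, 445, 454 and 485 CPM in the neutral and 372, 311, 291 and 280 CPM in the repressive libraries. The ranges were apart, and it fell by 0.52 ± 0.09 (SE, edgeR adjusted p = 0.000109) with its call kept in every setting. SCD, stearoyl-CoA desaturase, was low, at 12.1 to 32.9 CPM and 7.22 to 13.4 CPM with an overlap, and fell by 1.23 (adjusted p = 0.0481 from edgeR), a call lost without any 1 of neutral replicates 1, 2 and 4 or repressive replicates 1, 2 and 4. The other 32 of the 34 tested genes of the list did not pass, and the list's median was -0.13, against 1.36% lower and a median of 0.01 over all tested genes.

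**Figure D4:**
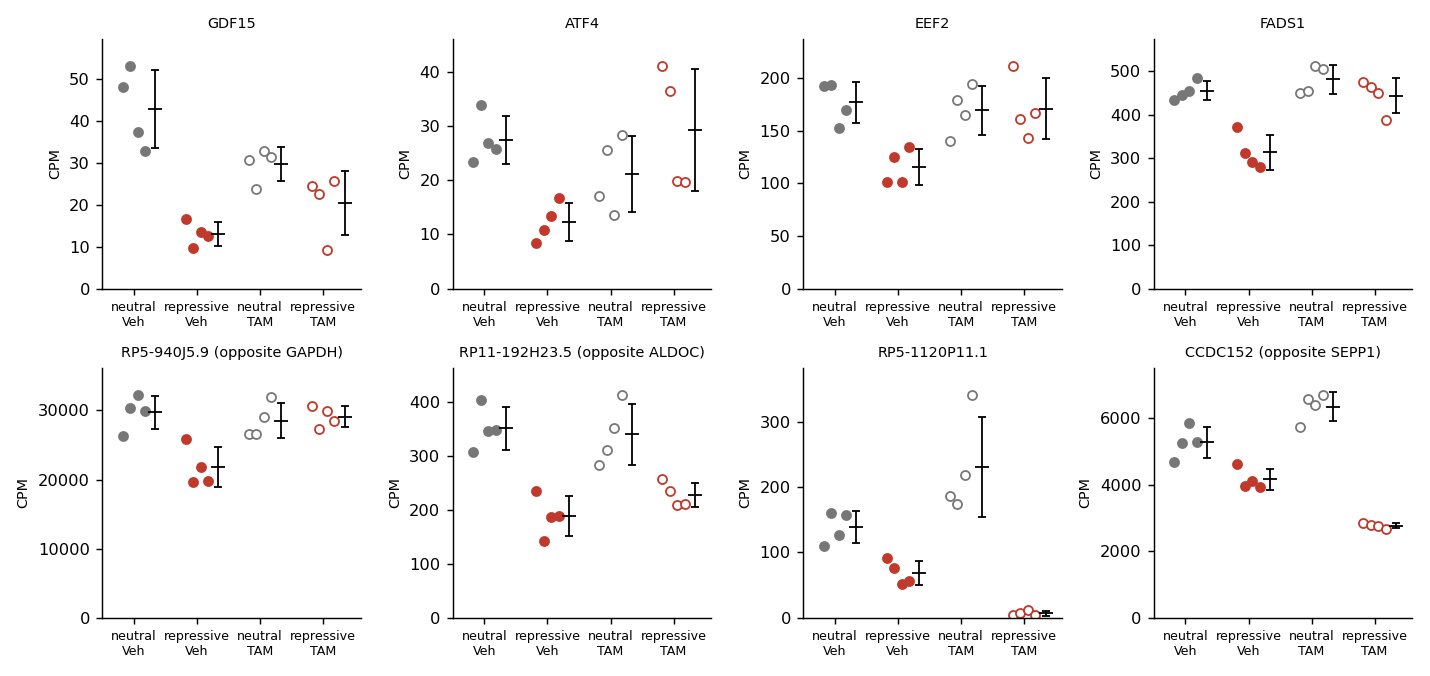
CPM of 8 genes that were lower in the repressive line under vehicle, by library (points; filled for vehicle, open for tamoxifen) with the mean and SD beside them, each axis from 0. Under vehicle the lines lie apart in all 8 panels; with tamoxifen the lines overlap for GDF15, ATF4, EEF2, FADS1 and RP5-940J5.9 and lie apart for RP11-192H23.5, RP5-1120P11.1 and CCDC152.

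None of the classical androgen-induced genes KLK3, KLK2 and FKBP5 passed the test before induction. KLK3, which encodes prostate-specific antigen, was at 30.9, 58.5, 36.2 and 69.3 CPM in neutral replicates 1 to 4 and at 48.7, 37.3, 21.0 and 34.8 CPM in the repressive ones under vehicle. The ranges overlapped, with a log2 difference of -0.41 ± 0.25 (SE, edgeR adjusted p = 0.487). With tamoxifen KLK3 was at 34.1 to 48.8 CPM in the neutral and 4.52 to 12.9 CPM in the repressive libraries, a difference of -2.13 (adjusted p = 0.000218 from edgeR), and the change between the treatments passed as an interaction (-1.71, adjusted p = 0.0187 from edgeR). KLK2, a related kallikrein, had a vehicle difference of -0.41 (adjusted p = 0.68 from edgeR) and FKBP5, a hormone-induced chaperone, of 0.03 (adjusted p = 0.987 from edgeR). FKBP5 had 5.36 to 11.7 CPM in the neutral and 5.74 to 9.73 CPM in the repressive libraries, too few counts to show a small difference. HOXB13, a lineage factor, was at 45.5 to 96.5 and 30.6 to 51.5 CPM, a difference of -0.58 (adjusted p = 0.13 from edgeR) that passed in 2 of 18 alternatives.

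The KLK3 promoter is shown because it holds an element close to the ARE. It covers chr19:50854665-50854964 of GRCh38.p14 (RefSeq, plus strand), with the closest match to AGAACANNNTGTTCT, at 2 mismatches and beginning 170 bases before the gene start, in capitals.

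KLK3 promoter: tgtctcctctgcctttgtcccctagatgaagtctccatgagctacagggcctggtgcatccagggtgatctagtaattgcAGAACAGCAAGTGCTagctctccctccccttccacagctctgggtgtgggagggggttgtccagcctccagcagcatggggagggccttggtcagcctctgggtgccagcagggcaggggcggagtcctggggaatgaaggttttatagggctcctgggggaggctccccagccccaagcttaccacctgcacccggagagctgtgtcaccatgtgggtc

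In windows of 300 bases at gene starts, the half-site AGAACA on either strand was in 17.5% of 27305 genes. Of the called genes with a window of their own, it was in 3 of 22 higher ones (13.6%) and 3 of 38 lower ones (7.89%). In the windows of their opposite partners it was in 1 of 12 for the higher (8.33%) and 2 of 22 for the lower genes (9.09%). The full element at 2 mismatches or fewer was in 1.74% of all genes and in 0 of either called set, by own or partner window. The match is a description of the letters in these windows, and more distant elements were not searched.

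Other gene lists gave few calls under vehicle. Of the tested genes, 0 of 10 KRAB cofactors, 0 of 11 LNCaP identity, 0 of 9 luminal, 0 of 1 neuroendocrine and 0 of 3 mesenchymal genes passed. The same held for 0 of 5 S phase, 0 of 8 G2/M and 0 of 2 interferon genes. It held too for 0 of 3 sterol synthesis, 0 of 12 heat shock and 0 of 8 histone genes. As only 2.33% of all tested genes were called, lists this short would seldom hold a call. These counts of 0 therefore do not show that the genes were unchanged. The 2 tested basal genes, KRT5 and KRT6A, were at 0 in all 8 compared libraries and could not pass. They had counts only in the activating line with tamoxifen, so they say nothing about basal genes here. SETDB1, which lies opposite CERS2, was at 8.64 to 19.5 and 7.65 to 12.04 CPM, with a log2 difference of -0.52 (adjusted p = 0.566 from edgeR). TRIM28, CBX5 and TMPRSS2 were too low to be tested. KRT8, a luminal keratin, had a difference of 0.02 (adjusted p = 0.935 from edgeR) and MKI67, a proliferation marker, of 0.14 (adjusted p = 0.907 from edgeR). Of 61 tested ZNF genes 3 rose, against 0.979% of all tested genes, and 0 fell. The 3 were ZNF276, ZNF446 and ZNF10, which marks the construct itself. Features opposite list genes added INTS8 (opposite the cyclin gene CCNE2, 0.28) and TRIM59 (opposite the condensin gene SMC4, 0.25), which were higher, and VIM-AS1. VIM-AS1, opposite vimentin, had the largest fall of the 93. It was at 18.5, 33.8, 29.5 and 22.3 CPM in the neutral and 1.39, 3.61, 5.74 and 9.73 CPM in the repressive libraries, a log2 fold change of -2.31 ± 0.39 (SE, edgeR adjusted p = 0.000138), and VIM itself had at most 3 counts.

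Other genes named by their size of change included MARCH1, a membrane-bound ubiquitin ligase with no opposite exon. MARCH1 was at 59.2, 62.4, 50.9 and 59.9 CPM in the neutral and 91.8, 106, 91.8 and 114 CPM in the repressive libraries. The groups were apart, with a log2 fold change of 0.82 ± 0.16 (SE, edgeR adjusted p = 0.000814) that was called in every setting. METRN, a secreted factor with roles in the nervous system, was at 28.2 to 30.8 and 45.8 to 51.7 CPM, without overlap, and its log2 fold change of 0.75 (adjusted p = 0.0345 from edgeR) lost its call in 11 of 17 alternatives. Higher too were VIPR1-AS1, an antisense RNA of a neuropeptide receptor gene, at 0.94, LHX4, a homeobox gene with an opposite-strand RNA, at 0.70 and TBC1D10C, a regulator of Rab proteins opposite PPP1CA, at 0.64. These calls were lost in 7 of 16, 8 of 17 and 7 of 17 alternatives, that of LHX4 also with DESeq2.

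RP11-442H21.2, not found in the annotation, was abundant at 7501, 8780, 9234 and 8310 CPM in the neutral and 5900, 4574, 4988 and 4066 CPM in the repressive libraries. It fell by 0.77 (adjusted p = 0.0013 from edgeR) with no overlap and in every setting. TAF9B, a subunit of the basal transcription factor TFIID, was at 112, 190, 192 and 224 CPM and at 110, 65.0, 68.9 and 66.7 CPM. In replicate 1 of both lines it was nearly level, and the fall of 1.19 (adjusted p = 0.0236 from edgeR) lost its call in 6 of 18 alternatives. SEC24C, of the coat that carries proteins out of the endoplasmic reticulum, overlaps an unnamed opposite-strand gene and had a like pattern at 206, 377, 343 and 336 CPM and 195, 117, 140 and 138 CPM, and fell by 1.08 (adjusted p = 0.0481 from edgeR), a call lost in 8 of 17 alternatives. WDR66, a protein of cilia, fell by 0.88, DIDO1, a chromatin-binding protein, by 0.67, ANKZF1, of ribosome quality control and opposite GLB1L, by 1.02 and MMP24-AS1 by 1.11. Their calls were lost in 8 of 16, 4 of 18, 4 of 16 and 2 of 15 alternatives.

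The sign of the vehicle difference was then set beside the induced response of the repressive line, tamoxifen against vehicle, in which 709 of 3985 genes changed (17.8%). Of the 93 called genes 18 had the same sign in both comparisons and 75 the opposite sign. Of the 65 that were also called in the induced response, 10 had the same sign and 55 the opposite. These comparisons share the 4 repressive vehicle libraries with opposite sign, so an error in them pushes the signs apart. When the libraries were split so that none was shared, 4 of 37 genes called with repressive vehicle replicates 1 and 2 had the sign of the response measured from replicates 3 and 4 (10.8%). With the replicates exchanged it was 47 of 80 (58.8%). The count thus depended on which libraries made the calls, and no direction can be given to it. Repressive vehicle replicate 4 stood furthest from its group by a chi-square per gene that sets 2 libraries against counting noise. It was 3.933, 4.592 and 2.716 against replicates 1, 2 and 3, and 1.749 to 2.244 among those. Whether this library made the split counts differ was not tested.

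The lines under tamoxifen share no library with the vehicle comparison. There 132 of 3985 genes differed between the lines (3.31%), 51 higher (1.28%) and 81 lower (2.03%) in the repressive line. Of the 93 genes called under vehicle, 43 kept their sign with tamoxifen (46.2%), against 52.0% of all tested genes. By direction it was 32 of the 54 lower genes (59.3%) and 11 of the 39 higher ones (28.2%), and without the mitochondrial genes 43 of 82 (52.4%). Of the 93, 17 were called again with tamoxifen, 14 in the same direction and 3 in the opposite one. The difference between the lines changed with tamoxifen for 36 of the 93 by the interaction test, which calls 3.39% of tested genes but shares its vehicle libraries with the calls.

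**Figure D5:**
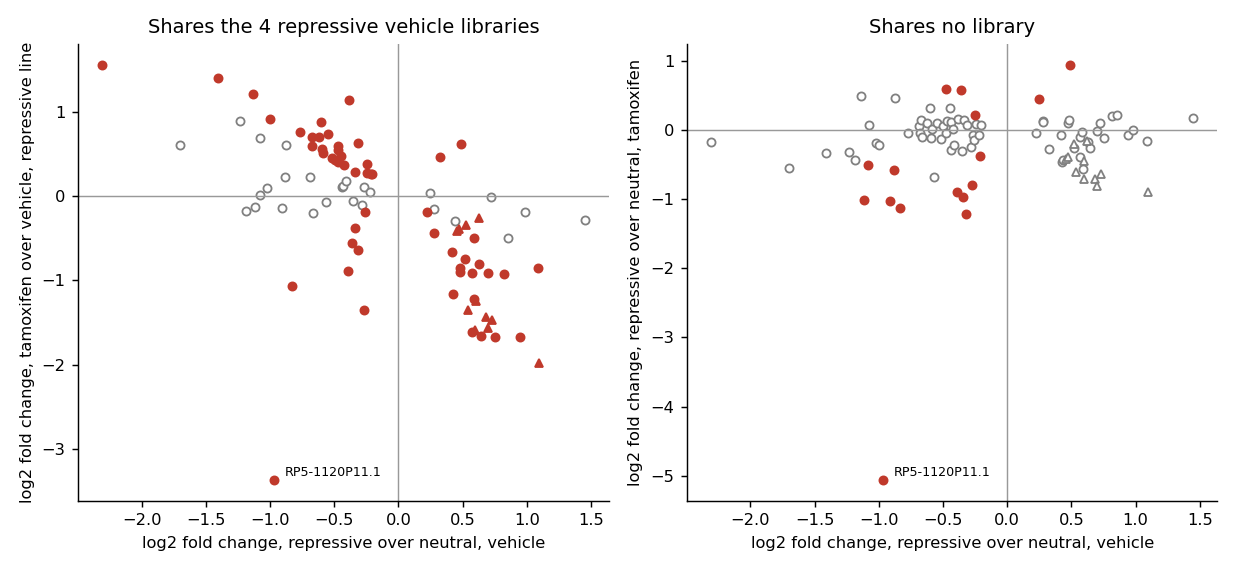
Log2 fold change of 92 called genes (all but ZNF10) under vehicle, against the induced response of the repressive line (left) and against the line difference under tamoxifen (right); triangles are mitochondrial genes and filled red symbols passed the test on the vertical axis. On the left 75 of all 93 called genes have opposite signs, with 4 libraries shared; on the right 43 of 93 have the same sign, with none shared.

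The 14 genes called in the same direction in both treatments were ZNF10 and 13 others, of which 2 rose and 11 fell. RP5-1120P11.1, a long non-coding RNA on chromosome 6 from 43899309 to 44042392 that overlaps an unnamed opposite-strand gene, had the largest fall with tamoxifen. Under vehicle it was at 110, 160, 126 and 157 CPM in neutral replicates 1 to 4 and at 91.8, 75.9, 51.7 and 55.6 CPM in the repressive ones. With tamoxifen it was at 187, 174, 219 and 342 CPM and at 3.86, 6.96, 12.2 and 4.52 CPM. It was lower in the repressive line in both treatments with no overlap, by -0.97 under vehicle (standard error 0.16, adjusted p = 0.000109 from edgeR) and -5.06 with tamoxifen (adjusted p = 5.72e-07 from edgeR), and the larger difference with tamoxifen passed the interaction test (-4.09, adjusted p = 6.43e-06 from edgeR). Its vehicle call was kept in every setting.

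CCDC152, opposite the selenium transport gene SEPP1 of the androgen response list, was at 4677, 5259, 5850 and 5273 CPM in the neutral and 4628, 3948, 4106 and 3941 CPM in the repressive vehicle libraries. The ranges were just apart, with a fall of 0.32 ± 0.06 (SE, edgeR adjusted p = 0.000711), against 5722 to 6698 and 2667 to 2840 CPM with tamoxifen, a difference of -1.21. SKIV2L2, opposite PPAP2A of the same list, which encodes a lipid phosphatase, was at 2648, 3071, 3338 and 2873 CPM and at 2758, 2201, 2319 and 2454 CPM. These overlapped, with a fall of 0.27 (adjusted p = 0.00953 from edgeR), against a difference of -0.79 with tamoxifen. These were the 2 of 27 features opposite androgen response genes that fell under vehicle, against 1.36% of all tested genes, and with tamoxifen 9 of the 27 fell, against 2.03%. The 2 became 1 without neutral replicate 2 or 3 or repressive replicate 2, and 4 without neutral replicate 1.

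SLC25A26, opposite the growth factor signalling inhibitor gene LRIG1, was at 761 to 792 CPM in the neutral and 556 to 679 CPM in the repressive vehicle libraries. It stood apart there with a difference of -0.34, and at 853 to 991 against 455 to 498 CPM with tamoxifen, a difference of -0.97. RP11-1100L3.8, opposite the nuclear receptor gene NR4A1, had differences of -0.39 and -0.90, and VTI1B, opposite ARG2, of -0.21 and -0.38. The features opposite ALDOC, VEGFA and ANKRD37 differed by -0.58, -1.02 and -1.13 with tamoxifen, and SEC24C and MMP24-AS1 by -0.50 and -1.01.

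The 2 that rose in both were UTS2, a vasoactive peptide gene opposite the clock gene PER3, and TRIM59. UTS2 was at 83.9, 94.9, 110 and 83.4 CPM in the neutral and 127, 131, 124 and 131 CPM in the repressive vehicle libraries, a difference of 0.49, and had one of 0.94 with tamoxifen. TRIM59 differed by 0.25 and 0.45. The 3 genes that turned were the feature opposite the antiproliferative gene BTG1 (-0.36 under vehicle and 0.58 with tamoxifen), FAM13A-AS1 (-0.47 and 0.59) and CTD-2659N19.10, opposite the peroxiredoxin gene PRDX2 (-0.25 and 0.22).

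The other vehicle lines show where the 2 compared lines stood. Of the 92 called genes other than ZNF10, the activating vehicle mean lay between the repressive and neutral means in 80, nearer to the repressive mean in 66 and nearer to the neutral mean in 26. Against the activating line under vehicle, 1 of 3985 genes differed in the repressive line, ZNF10 itself, at 0 to 1.62 CPM in the activating libraries, and 16 differed in the neutral line. At an unadjusted p under 0.05 these counts were 169 and 375. The parental vehicle mean was nearer to the repressive mean in 42 of the 92 genes and nearer to the neutral mean in 50, with 33 of 54 lower and 9 of 38 higher genes nearer to the repressive. For all 11 called mitochondrial genes the activating mean was nearer to the repressive, and for 10 of the 11 the parental mean was nearer to the neutral. These positions use the same repressive and neutral libraries that made the calls.

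GDF15 was at 14.7 to 38.0 CPM in the activating and 9.98 to 32.7 CPM in the parental vehicle libraries, between or across the levels of the compared lines. RP5-1120P11.1 was at 66.2 to 78.6 CPM in the activating line and at 75.3 to 110 CPM in the parental line. Both ranges overlapped that of the repressive line, 51.7 to 91.8 CPM. The activating range did not reach the neutral range, 110 to 160 CPM, and the parental range ended at its lower edge. What sets these levels was not tested. CCDC152 was at 4185 to 4983 CPM in the activating and 8020 to 9019 CPM in the parental line, the latter above both compared lines.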

How the data were processed

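Gene expression was measured by RNA-seq (stranded mRNA libraries) in 4 LNCaP lines with vehicle or tamoxifen, 4 libraries per group. The authors deposited estimated counts per gene, merged over libraries from Salmon 1.9.0 on GRCh37, per the labels and the methods of the study. The strand setting and annotation release are not given in the sources used here. These were rounded to integers for the count tests, and totals ran from 454982 to 1164808 per library, which limits precision for low genes. Of 57773 genes, 3985 passed edgeR's filterByExpr over the 8 groups. Lines were compared with edgeR 4.0.16 in R 4.3.3 (TMM, robust quasi-likelihood test, only the 2 groups compared in the fit, Benjamini-Hochberg adjustment over all tested genes at 0.05). DESeq2 1.42.0 was an alternative, with others on normalization, filters, spread, strand overlap and left-out libraries. The edgeR fit was tested on simulated data. CPM used TMM over all 32 libraries. Single values were compared by exact permutation tests. Opposite-strand exons were taken from GENCODE lifted to GRCh37, which held 96.1% of the genes, and promoters from RefSeq (GRCh38.p14). Genes were named by rule: called genes whose counts averaged 20 or more and whose CPM did not overlap, the 10 largest in each direction, the 5 largest in each direction with no opposite exon, called genes of the androgen response and cell type lists, and a fixed set that includes ZNF10 and KLK3, some genes of which are not reported here. Those outside it, such as ATF4, ENO1, GAPDH, EIF4B, HEATR1, most mitochondrial genes and the features opposite other genes, were named after their values were seen. The members and lists were chosen with earlier results of these data known. Between the lines the replicate numbers did not pair the samples (the closing section gives the check). Between the treatments of the repressive line the same-numbered libraries had positive correlations, 0.0411 to 0.2487, so a pairing there remains possible. No block was fitted in the main comparisons, the induced response included.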

Additional observations from a re-analysis of the deposited data

Results flagged for a closer look

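Single libraries stood apart from the other 3 of their group in 10 of 152 checks of named genes (Dixon's ratio above 0.829), a rate near the 1 in 20 that chance gives. In the compared libraries these were MT-ND4L in neutral vehicle replicate 1, at 37.02 CPM against 57.21 to 58.73, TBC1D10C in repressive vehicle replicate 2, at 162.5 CPM against 121 to 128, MT-ND6 in repressive vehicle replicate 4, at 7971 CPM against 6487 to 6582, TAF9B in repressive vehicle replicate 1, at 109.9 CPM against 65.02 to 68.88, and HOXB13 in repressive vehicle replicate 3, at 30.61 CPM against 48.16 to 51.45. With tamoxifen they were VIPR1-AS1 at 6.108 CPM and METRN at 3.054 CPM in repressive replicate 3, SCD at 28.31 CPM in repressive replicate 1, WDR66 at 36.2 CPM in neutral replicate 4 and FOXA1 at 36.15 CPM in neutral replicate 1. The total of neutral tamoxifen replicate 1, 1164808 counts, was also far from the others of its group, at 583481 to 681585.

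The difference between the lines changed with tamoxifen, by the interaction of line and treatment in edgeR, for 10 named genes. On the log2 scale the change was negative for MT-ND3 (-1.99), MT-ATP6 (-1.51), MT-ND4L (-1.39), MT-ND6 (-0.78), RP5-1120P11.1 (-4.09) and KLK3 (-1.71). For WDR66 (1.34), RP11-442H21.2 (0.73), DIDO1 (0.82) and HOXB13 (1.10) it was positive. For those of them that were called under vehicle the vehicle libraries also made the calls, so this test is not independent of how they were chosen.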

How the results depend on the processing

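The 93 calls between the uninduced lines became 33 of 902 tested genes, 19 higher and 14 lower, among genes with no opposite-strand exon, 35 with the spread of all 16 vehicle libraries and 50 with that of all 32; leaving out 1 library gave 47 to 180. Other settings gave 69 (DESeq2) to 109 calls. The replicate number as a block gave 34. The same-numbered libraries of the lines under vehicle had correlations of -0.166, 0.0235, 0.056 and 0.0423, so the numbers do not pair those samples. They were -0.2375, 0.0057, -0.0175 and -0.2395 between the lines with tamoxifen, and 0.2487, 0.0653, 0.0411 and 0.1378 between the treatments of the repressive line, all positive but 2 of the 4 not over 0.1; the block gave 91 and 931 calls there. With tamoxifen the 132 calls became 25 of 902 with no opposite exon, and 92 to 171 with 1 library left out. The 709 induced calls became 454 with DESeq2, 133 of 902 with no opposite exon and 534 to 729 with 1 library left out. The share with the sign of the induced response, 19.4%, became 6.06% with no opposite exon, and 10.8% or 58.8% with no shared library; the share with the same sign with tamoxifen, 46.2%, became 21.2% with no opposite exon. The causes were not tested, except that fewer genes were tested with no opposite exon and fewer libraries entered with 1 left out. The ESR1 difference turned to -5 on raw counts. Of the 25 named called genes, 8 kept their call in every setting and 0 reversed. Uncalled genes near 0 reversed: with the block FKBP5 (-0.0082), with no filter KRT8 (-0.0021), and with 1 library left out FKBP5 (-0.14 to 0.21), KRT18 (-0.070 to 0.18), MKI67 (-0.019 to 0.30) and KRT8 (-0.026 to 0.071). Low counts limit what could be called in low genes such as FKBP5, SETDB1 and SCD.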
